A study of Rattus norvegicus with 32 samples.

Results

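The effect of perinatal iron deficiency on hippocampal gene expression was measured as an average over pups with and without intranasal insulin. All 32 of the 32 libraries of the study entered this comparison, each made from 1 hippocampus of 1 wild-type rat pup. They formed 4 groups, iron sufficient control (IS control, n = 8), iron deficient control (ID control, n = 9), iron sufficient with insulin (IS insulin, n = 7) and iron deficient with insulin (ID insulin, n = 8). The averaged effect was the mean of both ID group coefficients minus the mean of both IS group coefficients, in 1 model with a coefficient for each group. A positive log2 fold change therefore means a higher level in ID pups.

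Iron deficiency was produced through the dam, whose purified diet held 3 to 6 ppm iron between gestational day 3 and postnatal day 7. Insulin was given into the nose from postnatal day 8 to postnatal day 21 in the insulin groups. The labels describe neither the iron content of the sufficient diet nor the diet after day 7, nor do they give strain, sex or litter. Pups were euthanized on postnatal day 7 or 21, and which day applies to the control groups is not stated. Because litters are not given, the p-values cover the variation among these individual pups, some of which may be littermates. The first number of the sample titles differs between the groups (69 and 70 in ID control, 71 in IS control, 72 in IS insulin, 73 in ID insulin), so whatever it marks cannot be told apart from diet.

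Iron enters neurons mainly bound to transferrin, taken up by the transferrin receptor. When cellular iron is low, iron regulatory proteins bind the transcript of that receptor and stabilise it, and they block translation of the ferritin transcripts. Iron is also a cofactor of respiratory chain complexes, of oxygen-dependent dioxygenases and of enzymes of lipid and monoamine synthesis. The perinatal hippocampus is known to be vulnerable to its lack.

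Library totals ran from 19619345 to 28062630 counts. Pairs of libraries within a group differed, with a chi-square per gene between 5.77 and 102.19, so no pair within a group agreed within sampling noise. Markers of hippocampal neurons were present throughout. Prox1, a transcription factor of dentate granule cells, lay at 69.3 to 135 CPM in IS and 61.8 to 134 CPM in ID libraries. Wfs1, a marker of CA1 pyramidal cells, lay at 235 to 425 CPM in IS and 215 to 450.4 CPM in ID libraries. Libraries with Y-linked transcripts above 10 CPM numbered 4 among the 8 of IS control, 3 among the 9 of ID control, 3 among the 7 of IS insulin and 4 among the 8 of ID insulin. Levels are given in CPM, counts scaled by normalized library totals and not divided by gene length.

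The comparison called 252 of 15439 tested genes (1.63%) at an adjusted p under 0.05. Of these, 130 were higher in ID (0.842% of tested genes) and 122 lower (0.79%). Most changes were small, as 162 of the 252 had an absolute log2 fold change under 0.5 and 31 reached at least 1. The median over all tested genes was 0.002. In 1 gene (0.00648%), Scara3, all 17 ID libraries lay on 1 side of all 15 IS libraries, and in all others the diets overlapped.

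Tfrc (ENSRNOG00000001766), which encodes transferrin receptor 1, had the lowest adjusted p of all genes. Its promoter region is shown because the gene leads the comparison, from 250 bases before to 50 bases after the start of the gene. The sequence comes from RefSeq on assembly GRCr8, chr11:81690269-81690568, minus strand, and capitals mark ACGTG, the core letters of the hypoxia response element, searched on both strands.
Tfrc: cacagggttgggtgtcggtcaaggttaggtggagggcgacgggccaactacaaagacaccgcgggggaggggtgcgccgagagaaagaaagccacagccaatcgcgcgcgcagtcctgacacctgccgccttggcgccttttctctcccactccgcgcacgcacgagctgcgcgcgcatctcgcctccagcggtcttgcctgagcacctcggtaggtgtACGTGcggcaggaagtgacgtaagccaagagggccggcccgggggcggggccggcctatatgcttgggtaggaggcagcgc
The match lies 31 to 27 bases before the start. Of 33469 rat promoter windows of this length, 19.3% hold the same letters, and a match is a description of the sequence only.

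Tfrc levels were 106.2 to 126.9 CPM (median 117.9) in IS control and 127.5 to 193.6 CPM (median 168.8) in ID control, and 116.9 to 164.8 CPM (median 120.4) in IS insulin and 172.9 to 225.4 CPM (median 205.4) in ID insulin. ID libraries lay above IS libraries without overlap among the control pups and again among the insulin pups, and 15 of 17 ID libraries exceeded every IS library. The highest IS library was IS insulin replicate 1 at 165 CPM, and every other IS library lay below every ID library. Averaged over insulin, Tfrc rose in ID (log2 fold change 0.60, SE 0.05, adjusted p = 2.33e-09). The log2 fold change was 0.53 in control pups (adjusted p = 1.16e-04) and 0.68 in insulin pups (adjusted p = 1.79e-06).

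Tfrc was the 1 member called among 24 tested genes of iron uptake, storage and export, whose median log2 fold change was 0.027. Fth1, the ferritin heavy chain, averaged 812 ± 57 CPM in IS and 839 ± 101 CPM in ID libraries (SD, n = 15 and 17) and was not called (log2 fold change 0.04, SE 0.05, adjusted p = 0.764). Slc40a1, the iron exporter ferroportin, was not called (log2 fold change 0.25, SE 0.10, adjusted p = 0.191). Neither was Slc11a2, the divalent metal transporter DMT1 (log2 fold change 0.09, SE 0.03, adjusted p = 0.141). Ncoa4, the receptor that delivers ferritin to lysosomes, had the lowest adjusted p of these 4 genes without being called (log2 fold change −0.10, SE 0.03, adjusted p = 0.0817). It measured 131 to 151 CPM in ID control and 141 to 170.0 CPM in IS control. In insulin pups Ncoa4 measured 153 to 175 CPM in ID and 153 to 182 CPM in IS. The log2 fold change was −0.15 in control pups (adjusted p = 0.102) and −0.04 in insulin pups (adjusted p = 0.604). None of 22 genes of mitochondrial iron and iron-sulfur assembly (median 0.024) and none of 24 iron-dependent dioxygenases (median 0.040) was called.

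**Figure D1:**
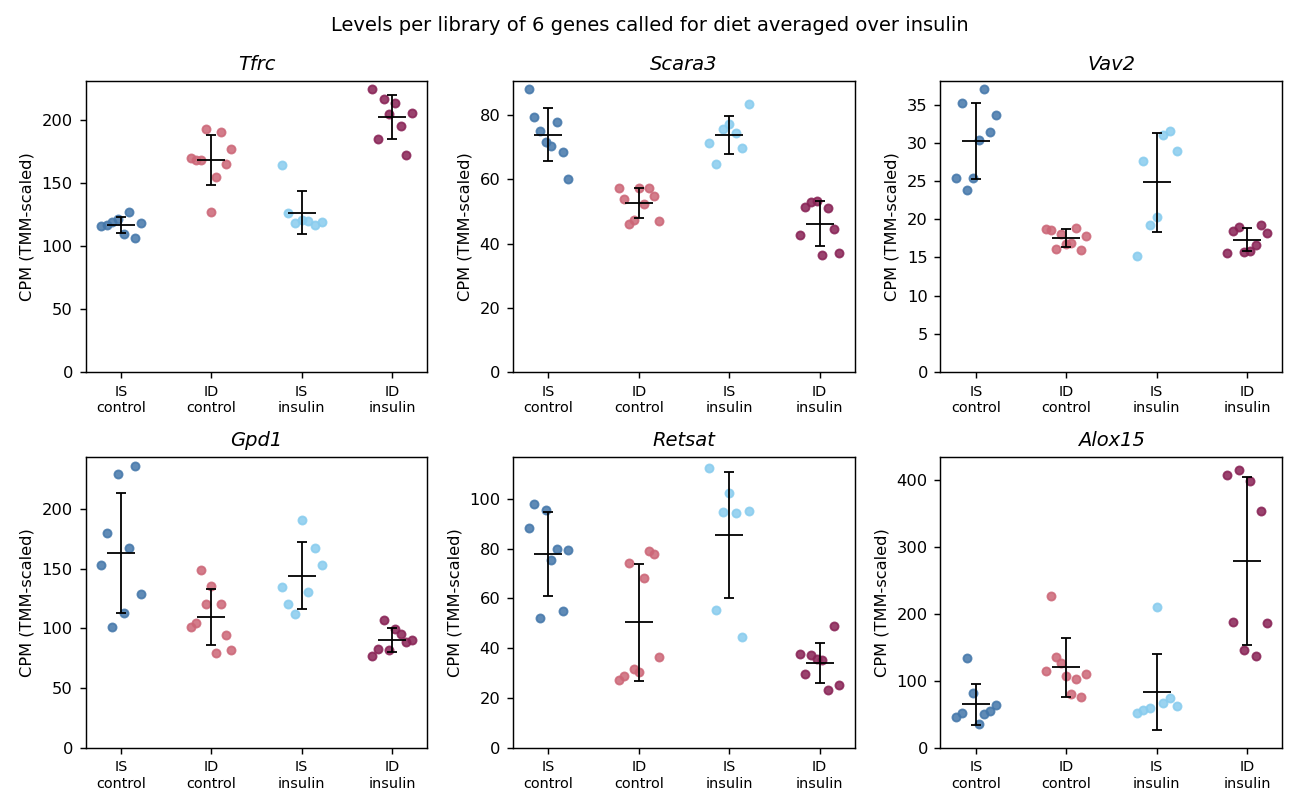
Level in each library of Tfrc, Scara3, Vav2, Gpd1, Retsat and Alox15 in CPM (y axes, from 0) by group (x axes); each point is 1 library, horizontal bars are group means and error bars SD (n = 8, 9, 7 and 8). Tfrc lies higher and Scara3 lower in both ID groups than in the matching IS group, while Retsat in ID control falls at separate low and high levels.

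Control pups and insulin pups share no library, so they give separate estimates of the diet effect. ID control against IS control called 45 genes (0.291%), 27 higher (0.175%) and 18 lower (0.117%). ID insulin against IS insulin called 378 (2.45%), 204 higher (1.32%) and 174 lower (1.13%). The lists shared 7 genes, 15.6% of the control-pup calls and 1.85% of the insulin-pup calls, and all 7 moved in the same direction. They were Tfrc, Tmem45b, Vps4b and LOC108351520, higher in ID, and Scara3, Vav2 and Cnot8, lower in ID. Of the 252 genes called for the averaged effect, these 7 were called in both comparisons, 21 in control pups only, 119 in insulin pups only and 105 in neither. Directions matched for 247 of the 252 genes, a count that the averaging itself favours. The larger fold change was in insulin pups for 181 of them.

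The calls of each comparison were then read in the other. Among the 45 control-pup calls, 30 (66.7%) had the same sign in insulin pups. The median log2 fold change of those called higher was 0.528 in control pups and 0.181 in insulin pups, and of those called lower −0.581 and −0.229. Among the 378 insulin-pup calls, 196 (51.9%) had the same sign in control pups. Across all 15439 genes, which are not independent of each other and share library composition, the log2 fold changes of the comparisons had a Pearson r of 0.202 and a Spearman correlation of 0.008.

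**Figure D2:**
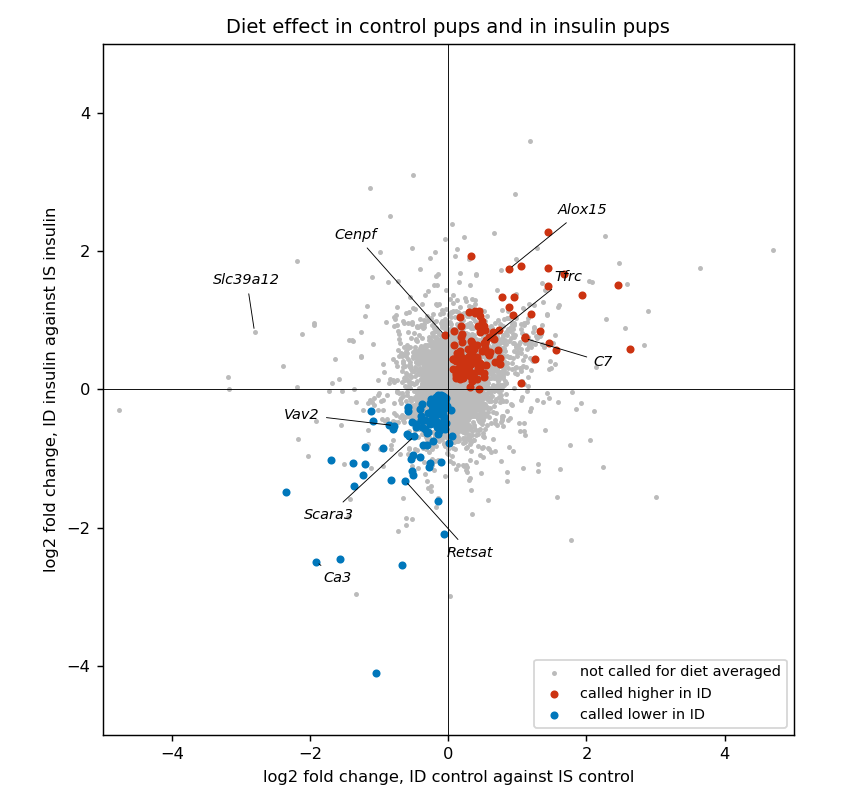
Log2 fold change of ID insulin against IS insulin (y axis) plotted against that of ID control against IS control (x axis); each point is 1 tested gene, red and blue points are the 130 genes higher and 122 genes lower in ID in the averaged effect, and 2 genes lie outside the axes. Tfrc, Alox15 and C7 lie in the quadrant where both comparisons are positive, Scara3, Vav2, Retsat and Ca3 where both are negative, and Slc39a12 where control pups are negative and insulin pups positive.

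Scara3 (ENSRNOG00000016177) encodes a class A scavenger receptor family member that is induced by oxidative stress in cultured cells. It measured 60.2 to 88.1 CPM (median 73.3) in IS control and 46 to 57.4 CPM (median 53.9) in ID control, and 64.9 to 83.4 CPM (median 74.3) in IS insulin and 36.4 to 53.4 CPM (median 47.8) in ID insulin. The highest ID library was below the lowest IS library, over all pups as well as within each treatment. Scara3 fell in ID (log2 fold change −0.58, SE 0.06, adjusted p = 3.83e-08), with −0.49 in control pups and −0.68 in insulin pups.

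Vav2 (ENSRNOG00000007422), a guanine nucleotide exchange factor that activates small GTPases, measured 23.8 to 37 CPM (median 30.9) in IS control and 16 to 18.8 CPM (median 17.9) in ID control, and 15.2 to 31.5 CPM (median 27.7) in IS insulin and 15.6 to 19.2 CPM (median 17.4) in ID insulin. The ID libraries of both groups lay close together, and control pups did not overlap between diets. IS insulin spread widely, with its lowest library below every ID library. The averaged log2 fold change of Vav2 was −0.65 (SE 0.08, adjusted p = 9.81e-06), made up of −0.78 in control pups and −0.52 in insulin pups.

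Cnot8, a catalytic subunit of the CCR4-NOT deadenylase that shortens messenger RNA tails, measured 86.7 to 103 CPM (median 99.2) in IS control and 73.7 to 92.6 CPM (median 81.5) in ID control, and 91.7 to 108 CPM (median 105) in IS insulin and 75.5 to 91.4 CPM (median 81.9) in ID insulin. Insulin pups did not overlap between diets, and 10 of 17 ID libraries lay below every IS library. Its averaged log2 fold change was −0.27 (SE 0.04, adjusted p = 8.88e-05). Vps4b, an ATPase that disassembles ESCRT complexes at endosomes, was higher in ID by 0.20 on the log2 scale (SE 0.03, adjusted p = 8.58e-04), a small change in which 13 of 17 ID libraries exceeded every IS library. Vps4b averaged 44.7 ± 2.59 CPM in IS and 51.3 ± 2.98 CPM in ID (SD, n = 15 and 17). Tmem45b, a transmembrane protein gene of low level, averaged 0.56 ± 0.19 CPM in IS and 1.12 ± 0.22 CPM in ID, and 14 of 17 ID libraries exceeded every IS library (log2 fold change 1.04, SE 0.14, adjusted p = 1.03e-04).

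Orai2, a subunit of store-operated calcium channels, was called in control pups and in the average. It measured 101 to 138 CPM (median 117) in IS control and 56.8 to 95.7 CPM (median 74.7) in ID control, and 83.1 to 131 CPM (median 109.7) in IS insulin and 66.6 to 111 CPM (median 87.3) in ID insulin. Control pups did not overlap between diets, whereas insulin pups did. The averaged log2 fold change was −0.45 (SE 0.07, adjusted p = 9.44e-04), with −0.58 in control pups and −0.31 in insulin pups (adjusted p = 0.104).

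Among genes with a symbol whose mean log2 CPM reached 1 or more, the largest increase was that of Alox15, a lipoxygenase that uses iron to oxidise polyunsaturated fatty acids. Alox15 measured 35.6 to 134 CPM (median 53.4) in IS control and 75.1 to 227 CPM (median 111) in ID control, and 52.2 to 210.0 CPM (median 62.9) in IS insulin and 137 to 415 CPM (median 271) in ID insulin. ID libraries tended to be high and ID insulin highest, with overlap in both comparisons. The averaged log2 fold change was 1.31 (SE 0.21, adjusted p = 9.44e-04), and the change was called in insulin pups (1.74, adjusted p = 0.00294) but not in control pups (0.88, adjusted p = 0.196). With tissue list means as covariates the averaged value was 0.77. The difference between treatments was not itself called (interaction adjusted p = 0.29).

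Alas2, the erythroid enzyme that starts heme synthesis, was also called (log2 fold change 0.72, SE 0.18, adjusted p = 0.0315). Alas2 lost the call in 8 of 16 other settings and 8 of 32 fits with 1 library left out. Both genes stood on a list of blood cell markers, of which 12 were tested, 2 were higher and none was lower. The list median was 0.380, against 0.002 over all tested genes, of which 0.842% were called higher. Summed over the list, levels ran from 1377 to 3764 CPM in IS control, 1871 to 3781 in ID control, 2023 to 4565 in IS insulin and 1831 to 6338 in ID insulin. The globin gene Hbb averaged 470.0, 521, 632 and 1117 CPM in these groups and was not called (adjusted p = 0.206). With the tissue covariates, which include the mean of the blood cell list, Alas2 had a log2 fold change of 0.23 (adjusted p = 0.27 in edgeR). Alox15 and Alas2 are themselves members of that list, so this fit cannot isolate the part of blood RNA in their values. In bulk tissue, more cells of a type and more RNA per cell cannot be told apart.

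C7, a component of the terminal complement pathway, measured 1.92 to 4.1 CPM (median 3.19) in IS control and 4.77 to 8.84 CPM (median 6.66) in ID control, and 1.91 to 5.3 CPM (median 2.79) in IS insulin and 3.97 to 7.49 CPM (median 4.49) in ID insulin. Control pups did not overlap between diets, insulin pups did, and 10 of 17 ID libraries exceeded every IS library. C7 rose by 0.92 on the log2 scale (SE 0.14, adjusted p = 4.80e-04). Serpinb1a, an inhibitor of neutrophil serine proteases, rose by 0.94 on the log2 scale (SE 0.17, adjusted p = 0.002), again with 10 of 17 ID libraries above every IS library. Its level averaged 3.66 ± 1.28 CPM in IS and 7.00 ± 2.2 CPM in ID. Igf2, the fetal insulin-like growth factor, averaged 199 ± 72.4 CPM in IS and 291 ± 64.7 CPM in ID and was called higher (log2 fold change 0.54, SE 0.14, adjusted p = 0.0466), although neither control pups (adjusted p = 0.201) nor insulin pups (adjusted p = 0.177) called it alone. Lhb, the beta subunit of luteinizing hormone (log2 fold change 0.67), and Nexn, an actin-binding protein gene (0.74), completed the largest increases outside the groups described below. Igf2 lost its call in 7 of 16 other settings and 22 of 32 fits with 1 library left out, Nexn in 10 and 25, and Lhb in 7 and 18. Without ID insulin replicate 5, which had the highest Nexn level of its group, Nexn had a log2 fold change of 0.53 (adjusted p = 0.0524 in edgeR). With the choroid plexus markers, described below, as a covariate, the log2 fold change of Igf2 was 0.15 and that of Lhb 0.22.

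Several of the largest increases were in genes of motile cilia, the beating structures of ependymal cells that line the ventricles. Cfap99 measured 1.57 to 3.2 CPM (median 2.24) in IS control and 1.88 to 4.05 CPM (median 2.88) in ID control, and 1.74 to 2.98 CPM (median 2.61) in IS insulin and 3.57 to 10.4 CPM (median 4.78) in ID insulin. Its ID insulin libraries lay above all IS insulin libraries, while control pups overlapped. The averaged log2 fold change of Cfap99 was 0.75 (SE 0.14, adjusted p = 0.00369). Other genes of cilia rose on the log2 scale by 0.79 (Cfap65, adjusted p = 0.0103), 0.76 (Ccdc40, adjusted p = 0.0291), 0.72 (Wdr66, adjusted p = 0.00371) and 0.63 (Ccdc146, adjusted p = 0.0242). In the other direction, the dynein heavy chain gene Dnah8 had a log2 fold change of −1.07 (adjusted p = 0.00277 in edgeR).

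Of all tested genes 0.842% were called higher, and their median log2 fold change over all genes was 0.002. The list of motile cilium and ependymal markers gave 3 higher and 0 lower of 16 tested genes, with a median of 0.454. Its called members were the dynein heavy chain gene Dnah11 (log2 fold change 0.70, SE 0.19, adjusted p = 0.0446), the cilium gene Cfap44 (log2 fold change 0.74, SE 0.19, adjusted p = 0.0416) and Tekt1, a tektin of ciliary microtubules (log2 fold change 0.57, SE 0.14, adjusted p = 0.0355). The median was 0.174 in control pups and 0.689 in insulin pups. No member was called in control pups. Cfap44 was the one of the 3 called in insulin pups. The promoter region of Cfap44 is shown with GTTGCC, core letters bound by the RFX factors of ciliated cells, in capitals (searched on both strands and found on the reverse strand, 9 to 4 bases before the start). It is taken from RefSeq on GRCr8, chr11:69789856-69790155, minus strand.
Cfap44: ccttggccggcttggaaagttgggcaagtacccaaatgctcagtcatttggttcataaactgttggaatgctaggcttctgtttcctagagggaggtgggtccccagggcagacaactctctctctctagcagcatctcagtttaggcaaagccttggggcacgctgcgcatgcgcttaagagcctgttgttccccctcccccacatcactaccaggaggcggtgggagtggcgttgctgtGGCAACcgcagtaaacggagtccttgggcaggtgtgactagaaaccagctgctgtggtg
Of all 33469 promoter windows, 12.2% hold these letters.

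Choroid plexus, the secretory tissue of the ventricles, adjoins the hippocampus, and its markers varied widely between libraries. Ttr, the transthyretin gene of choroid plexus, ranged from 8.38 to 4009.6 CPM in IS and 277 to 5561 CPM in ID libraries and was not called (log2 fold change 1.01, SE 0.66, adjusted p = 0.507). Summed over 18 tested markers, the level ran from 173.2 to 4234 CPM in IS control (median 584.3), from 1648 to 6933 in ID control (median 3148), from 215.7 to 5483 in IS insulin (median 1421) and from 528.5 to 7416 in ID insulin (median 4235). All 18 had a positive log2 fold change, with a median of 0.949. The copper transporter gene Slc31a1 was the 1 member called (log2 fold change 0.32, SE 0.09, adjusted p = 0.049), and it lost the call in 13 of 16 other settings and 20 of 32 fits with 1 library left out. With limma voom and sample quality weights, 16 of the 18 were called higher, Ttr among them, with a median of 2.053. No marker was at 0 in any library.

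With the mean of the choroid plexus markers as a covariate, a setting added after the data were seen, 47 genes were called for the averaged effect in place of 252, and 41 of them were among the 252. These markers tended to be higher in both ID groups, so a call lost in this fit need not mean a smaller fold change. Under that covariate none of the 16 cilium and ependymal markers was called (median 0.144). The log2 fold change was 0.30 for Cfap44, 0.21 for Dnah11 and 0.26 for Tekt1. Of 54 named genes that were called, 37 lost the call under it, and 11 held it in all 16 settings tried and with any 1 library left out. Tfrc (0.60 without the covariate) and Scara3 (−0.58 without it) had log2 fold changes of 0.54 and −0.59 with it. The cilium count also went to 0 without ID insulin replicates 3 and 5, where the median was 0.309.

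**Figure D3:**
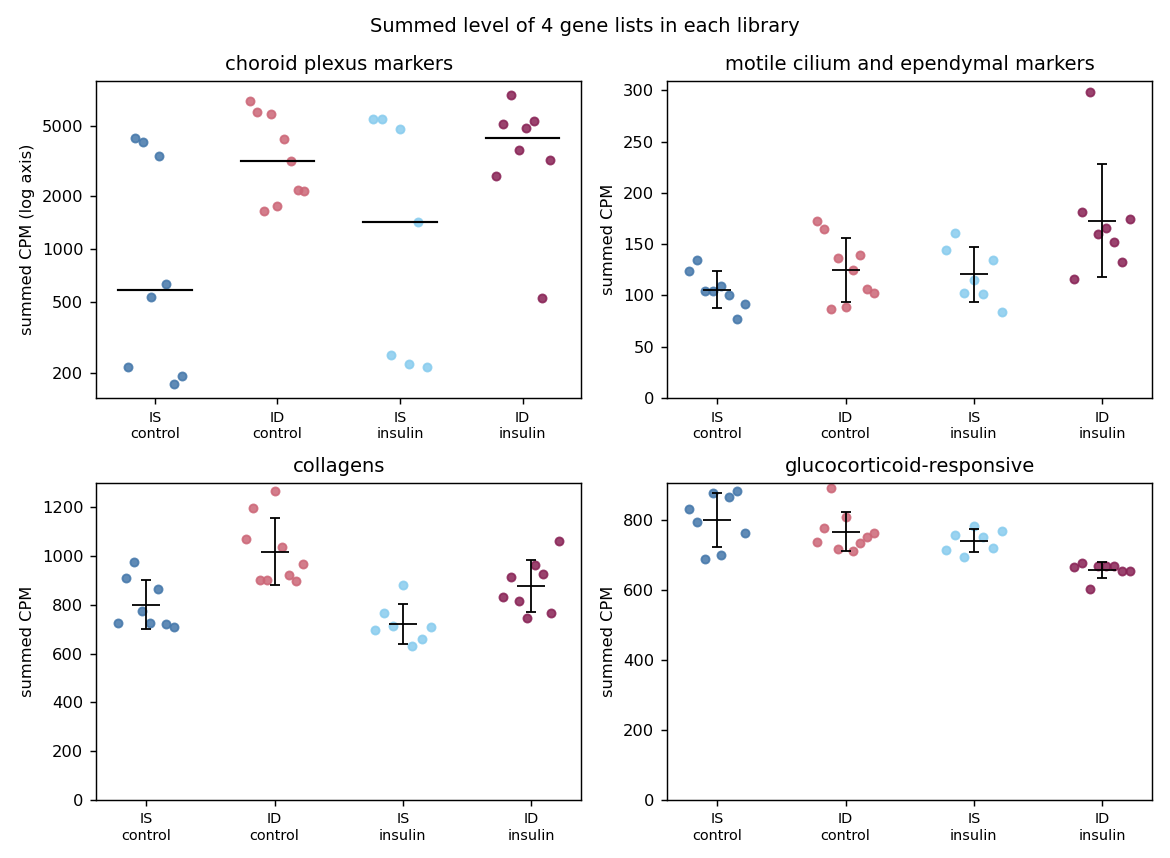
Summed CPM of 4 gene lists in each library (y axes, the choroid plexus panel on a log axis) by group (x axes); each point is 1 library, lines mark group medians in the choroid plexus panel, and bars mark means with SD in the others (n = 8, 9, 7 and 8). Choroid plexus levels overlap between all groups, collagen sums are highest in ID control, and glucocorticoid-responsive sums in ID insulin lie below all IS insulin libraries.

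Some genes of vessels and extracellular matrix were also called higher. Of 22 endothelial and mural cell markers 3 rose (0.842% of all tested genes did) and none fell, with a median of 0.174 (0.002 over all genes). In control pups the median was 0.248, 22 of the 22 were positive and 1 was called. Among insulin pups the median was 0.068, 13 of the 22 were positive and none was called. The interaction was called for 3 of these markers (0.939% of all tested genes). Ocln, a tight junction protein gene, measured 14.1 to 21.6 CPM (median 16.4) in IS control and 20.7 to 28.3 CPM (median 23.5) in ID control, and 14.2 to 22.9 CPM (median 18.6) in IS insulin and 17.8 to 24.4 CPM (median 19.8) in ID insulin. Values overlapped in both comparisons, with 9 of 17 ID libraries above every IS library. Ocln rose by 0.35 on the log2 scale (SE 0.07, adjusted p = 0.00683) in the average and by 0.52 in control pups (adjusted p = 0.0061). In insulin pups its log2 fold change was 0.18 and was not called (adjusted p = 0.321 in edgeR). Kdr, the main receptor of vascular endothelial growth factor, rose by 0.39 on the log2 scale (SE 0.09, adjusted p = 0.0201). Pdgfrb, a pericyte receptor gene, rose by 0.24 on the log2 scale (SE 0.06, adjusted p = 0.0478) and was named after its values were seen.

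Of 20 collagen genes 3 rose (0.842% of all tested genes did) and none fell, with a median of 0.259 (0.002 over all genes). Col3a1, a fibrillar collagen that also stood on the meningeal list, measured 54.5 to 122 CPM (median 68.2) in IS control and 86.2 to 246 CPM (median 116) in ID control, and 48 to 82.7 CPM (median 58.9) in IS insulin and 53.1 to 120.1 CPM (median 83.6) in ID insulin. ID libraries were shifted upward with overlap in both comparisons, and the averaged change was 0.60 on the log2 scale (SE 0.14, adjusted p = 0.0154). Col4a1 and Col4a2 encode the paired chains of basement membrane collagen IV. Col4a1 rose by 0.34 on the log2 scale (SE 0.09, adjusted p = 0.0309), with 13 of 17 ID libraries above every IS library and 1 ID library below every IS library. Col4a2, named after its values were seen, rose by 0.28 on the log2 scale (SE 0.07, adjusted p = 0.0329). Of 19 meningeal and perivascular fibroblast markers, Col3a1 was the 1 called.

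The start sites of Col4a1 and Col4a2 face away from each other, and their RefSeq promoter windows overlap by 176 bases. The Col4a1 window is shown with the shared bases in capitals, from GRCr8, chr16:84885347-84885646, plus strand. The Col4a2 window is chr16:84885471-84885770 on the minus strand.
Col4a1: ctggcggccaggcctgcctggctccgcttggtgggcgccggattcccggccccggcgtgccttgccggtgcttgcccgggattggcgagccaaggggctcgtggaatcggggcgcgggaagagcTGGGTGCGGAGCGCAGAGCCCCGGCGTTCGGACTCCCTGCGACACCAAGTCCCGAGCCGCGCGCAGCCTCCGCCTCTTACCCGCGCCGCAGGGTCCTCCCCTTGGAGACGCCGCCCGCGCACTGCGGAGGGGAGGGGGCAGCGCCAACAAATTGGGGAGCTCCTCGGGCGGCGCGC

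With the choroid plexus covariate no endothelial marker, no meningeal marker and no collagen was called. Its log2 fold changes were 0.50 for Col3a1 (0.60 without it), 0.38 for Col4a1 (0.34 without it), 0.34 for Kdr (0.39 without it) and 0.19 for Ocln (0.35 without it). Without ID control replicate 2 and IS insulin replicate 4, also a later addition, 3 collagens and 2 endothelial markers were called.

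Gpd1, the cytosolic glycerol-3-phosphate dehydrogenase of oligodendrocytes, measured 101 to 236 CPM (median 160.3) in IS control and 79 to 149 CPM (median 104) in ID control, and 112 to 191 CPM (median 134) in IS insulin and 76.8 to 107 CPM (median 89.2) in ID insulin. Insulin pups did not overlap between diets, control pups did, and 10 of 17 ID libraries lay below every IS library. The averaged change was −0.63 on the log2 scale (SE 0.10, adjusted p = 9.44e-04).

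Retsat, which saturates retinol, measured 52.3 to 98 CPM (median 79.8) in IS control and 27.4 to 79.2 CPM (median 36.3) in ID control, and 44.5 to 113 CPM (median 94.9) in IS insulin and 23.3 to 48.7 CPM (median 35.5) in ID insulin. ID insulin was uniformly low, and ID control fell at separate levels. There, 5 libraries lay between 27.4 and 36.3 CPM and 4 between 68.3 and 79.2 CPM, inside the IS range. The averaged change was −0.97 on the log2 scale (SE 0.16, adjusted p = 9.44e-04), called in insulin pups (−1.32, adjusted p = 0.00249) and not in control pups (−0.62, adjusted p = 0.221).

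Ca3, a carbonic anhydrase gene, had the largest averaged log2 fold change among decreases at this level of expression, −2.20 (SE 0.48, adjusted p = 0.0125). It measured 1.31 to 38 CPM (median 16.7) in IS control and 1.83 to 24.6 CPM (median 2.47) in ID control, and 1.45 to 42.7 CPM (median 36.2) in IS insulin and 2.28 to 9.6 CPM (median 3.5) in ID insulin. In IS pups, Ca3 was above 30 CPM in 8 libraries and below 3 CPM in 6, with 1 between. In ID pups it exceeded 10 CPM in 1 library, ID control replicate 2. Fcrl2 was also split within IS, with high levels in other libraries than Ca3. It was at 17.7 to 25.4 CPM in 7 IS libraries, while the other IS libraries (3.66 to 6.9 CPM) overlapped the range of ID libraries (4.77 to 8.66 CPM). The 8 IS libraries with Ca3 above 30 CPM were all among the latter. The averaged change of Fcrl2 was −1.02 on the log2 scale (SE 0.26, adjusted p = 0.0347). Separate levels were also seen for Adpgk, the ADP-dependent glucokinase (log2 fold change −0.69, SE 0.15, adjusted p = 0.0108), with 15 to 25.8 CPM in ID insulin and 20.4 to 47.5 CPM in IS insulin (insulin pups, adjusted p = 0.016). In control pups both diets held both levels of Adpgk. Of ID control libraries, 6 lay at 16.2 to 21.3 CPM and 3 at 35.2 to 40.2, and of IS control libraries 3 lay at 17.2 to 22.5 and 5 at 39.1 to 45.2. The log2 fold change of Adpgk in control pups was −0.41 and was not called (adjusted p = 0.427).

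Aadat, an aminotransferase that makes kynurenic acid, averaged 2.97 ± 0.918 CPM in IS and 1.92 ± 0.654 CPM in ID and fell by 0.70 on the log2 scale (SE 0.14, adjusted p = 0.007). Its log2 fold change in edgeR was −0.28 in control pups (adjusted p = 0.581) and −1.13 in insulin pups (adjusted p = 0.00425). The interaction was not called for Aadat (adjusted p = 0.114). Capg, an actin capping protein gene, averaged 5.68 ± 0.949 CPM in IS and 3.27 ± 1.56 CPM in ID, with 13 of 17 ID libraries below every IS library (log2 fold change −0.78, SE 0.16, adjusted p = 0.008). It was called in control pups (−1.09, adjusted p = 0.0161 in edgeR) and not in insulin pups (−0.46, adjusted p = 0.254). Slc19a3, a thiamine transporter gene, fell by 0.51 on the log2 scale (SE 0.13, adjusted p = 0.0365). The remaining large decreases were Ghdc (log2 fold change −1.14), the dynein heavy chain gene Dnah8 (−1.07), Sncg, which encodes gamma-synuclein (−0.88), the olfactory receptor gene Olr1462 (−0.58) and Itprid1 (−0.50). For Sncg the log2 fold change was −0.15 in control pups (adjusted p = 0.898) and −1.61 in insulin pups (adjusted p = 0.0158). Its averaged call was lost in 9 of 16 other settings and 24 of 32 fits with 1 library left out.

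Glucocorticoid-responsive genes gave 3 of 20 called lower (0.79% of all tested genes were), none called higher and a median of −0.130. The median was −0.048 in control pups and −0.216 in insulin pups. Plin4, a lipid droplet coat protein gene, averaged 2.2 ± 0.575 CPM in IS and 1.37 ± 0.373 CPM in ID and fell by 0.73 on the log2 scale (SE 0.13, adjusted p = 0.00256). Klf15, a transcription factor induced by the glucocorticoid receptor, averaged 21.8 ± 2.63 CPM in IS and 18.1 ± 2.07 CPM in ID and fell by 0.27 on the log2 scale (SE 0.06, adjusted p = 0.00719). Fkbp5, a co-chaperone that is a standard readout of the receptor, was not called (log2 fold change −0.22, SE 0.07, adjusted p = 0.118), nor was Sgk1 (log2 fold change −0.04, SE 0.07, adjusted p = 0.862). Summed over the list, ID insulin libraries ran from 603.8 to 678.3 CPM and IS insulin libraries from 696 to 783.3 without overlap, whereas ID control (712.8 to 893.1) and IS control (690.3 to 883.3) overlapped.

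Mt2A, the metallothionein that binds zinc and copper, was the third called member. It measured 16.7 to 40.6 CPM (median 28.4) in IS control and 16.4 to 27.3 CPM (median 20.9) in ID control, and 19 to 32.7 CPM (median 25) in IS insulin and 13.4 to 31.5 CPM (median 16.4) in ID insulin, with overlap in both comparisons. Mt2A fell by 0.49 on the log2 scale (SE 0.11, adjusted p = 0.022), and it was named after its values were seen. Its promoter region is shown because metal response elements are a known feature of metallothionein genes. Capitals mark TGCNCNC on either strand, a loose form of the core letters of that element in which N is any base. The sequence is from RefSeq on GRCr8, chr19:10838659-10838958, minus strand.
Mt2A: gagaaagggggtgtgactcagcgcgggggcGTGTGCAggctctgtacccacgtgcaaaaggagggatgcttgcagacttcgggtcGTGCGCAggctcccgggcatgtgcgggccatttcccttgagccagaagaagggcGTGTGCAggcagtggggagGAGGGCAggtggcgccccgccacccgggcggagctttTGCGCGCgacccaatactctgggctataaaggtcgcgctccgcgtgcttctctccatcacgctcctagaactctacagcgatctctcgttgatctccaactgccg
This window holds 5 matches to this loose form, which need not all be such elements, and 49.6% of all promoter windows hold at least 1. Of 17 tested zinc transporter genes none was called (median −0.015). With the choroid plexus covariate no glucocorticoid-responsive gene was called, with log2 fold changes of −0.62 for Plin4 and −0.25 for Klf15, while all 3 were called without ID insulin replicates 3 and 5.

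Neuronal and glial lists gave at most 2 calls each, while 1.63% of all tested genes were called. Of 23 myelin and mature oligodendrocyte markers, 1 fell, and the median was −0.066. This was Mal, a myelin proteolipid gene (log2 fold change −0.31, SE 0.08, adjusted p = 0.0353). Mbp, the myelin basic protein gene, averaged 8406 ± 849 CPM in IS and 8072 ± 1741 CPM in ID and was not called (log2 fold change −0.06, SE 0.08, adjusted p = 0.775). Of 17 astrocyte markers Mlc1, a membrane protein of astrocyte end-feet, fell (log2 fold change −0.17, SE 0.04, adjusted p = 0.0466), and of 15 microglia markers the lysosomal protease Ctss fell (log2 fold change −0.23, SE 0.05, adjusted p = 0.0154). Ctss changed by −0.07 in control pups (adjusted p = 0.764 in edgeR) and −0.40 in insulin pups (adjusted p = 0.00449). None of 13 oligodendrocyte precursor markers (median 0.061) and none of 19 GABAergic interneuron markers (median 0.014) was called.

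Of 12 granule and pyramidal neuron markers 2 were called higher, while 5 of the 12 had a positive log2 fold change and the median was −0.021. Dsp, a desmosomal protein of dentate granule cells, averaged 2.82 ± 1.07 CPM in IS and 4.89 ± 0.996 CPM in ID (log2 fold change 0.80, SE 0.14, adjusted p = 0.00265), and Npnt, an extracellular matrix protein, rose by 0.41 (SE 0.11, adjusted p = 0.0419). With the choroid plexus covariate neither was called in edgeR, with log2 fold changes of 0.47 for Dsp (adjusted p = 0.0814) and 0.25 for Npnt (adjusted p = 0.463). Of 29 glutamate receptor and postsynaptic density genes, 1 rose, the NMDA receptor subunit gene Grin2d (log2 fold change 0.25, SE 0.06, adjusted p = 0.0185). Grin2d changed by 0.07 in control pups (adjusted p = 0.778 in edgeR) and 0.43 in insulin pups (adjusted p = 0.00583). Camk2a, the synaptic kinase, averaged 1175 ± 104 CPM in IS and 1133 ± 129 CPM in ID and was not called (log2 fold change −0.05, SE 0.05, adjusted p = 0.687). Bdnf, the neurotrophin, averaged 36 ± 3.64 CPM and 36.2 ± 3.8 CPM and was not called (log2 fold change 0.01, SE 0.05, adjusted p = 0.981). None of 26 immediate early genes was called.

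Metabolic and signalling lists were near the background in the averaged effect. No gene was called among 31 of glycolysis and hypoxia response (median −0.028), 39 of the nuclear respiratory chain (−0.026), 28 of sterol and fatty acid synthesis (0.001) or 25 of interferon response and antigen presentation (0.053). In insulin pups alone, 4 of the 31 glycolysis and hypoxia genes and 2 of the 39 respiratory chain genes were called lower (1.13% of all tested genes were). The respiratory chain median was 0.056 in control pups and −0.079 in insulin pups. Igf2 was the 1 member called among 35 genes of insulin, IGF and mTOR signalling (0.007), and Alox15 the 1 among 23 of antioxidant and ferroptosis defence (0.025). Among neighbouring brain tissues, none of 14 thalamus and habenula (0.300), 14 striatum (0.025) or 14 neocortex markers (−0.052) was called. The thalamus and habenula median was 0.055 in control pups and 0.603 in insulin pups. In insulin pups 1 of these markers was called higher and 1 lower.

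**Figure D4:**
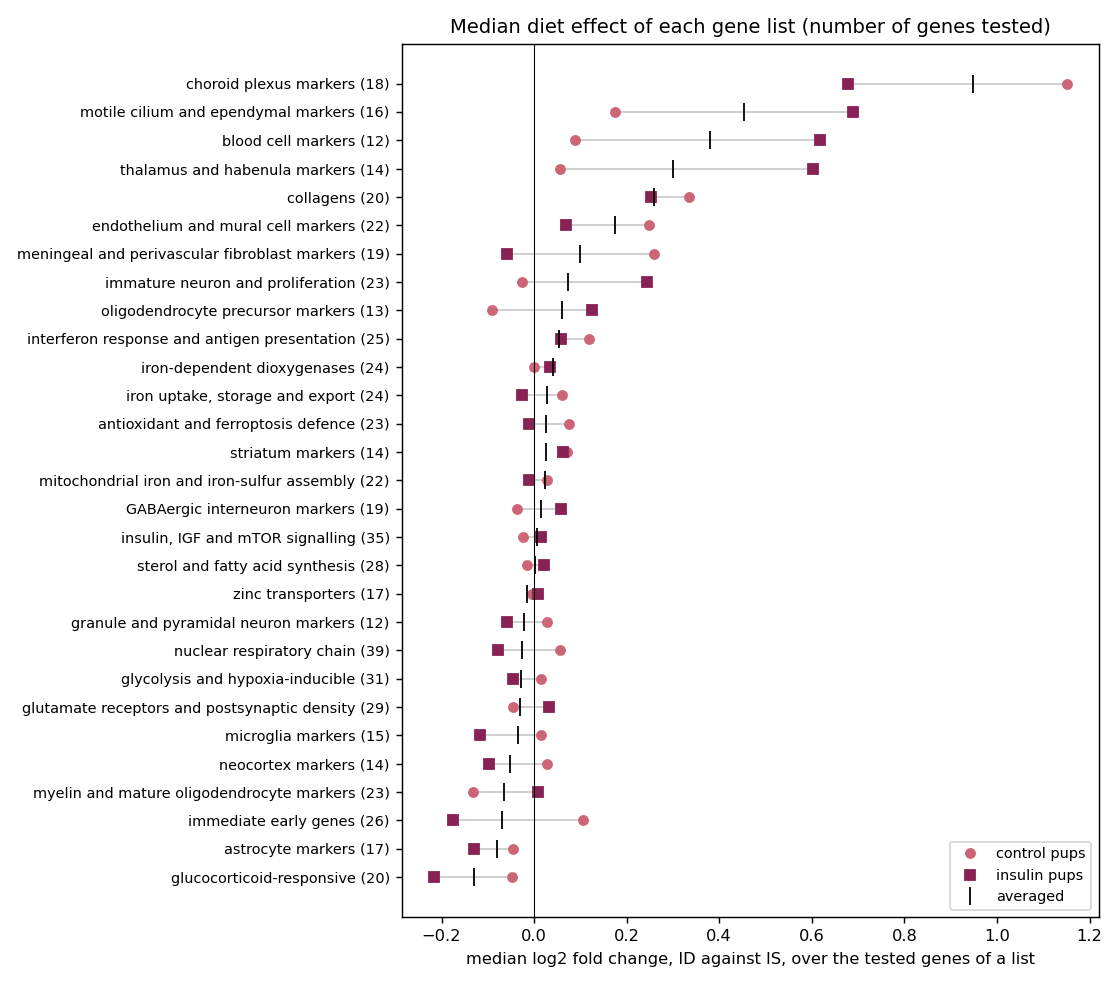
Median log2 fold change of ID against IS over the tested genes of each list (x axis), with the number tested in brackets (y axis); circles are control pups, squares insulin pups and vertical ticks the averaged effect. Choroid plexus markers have the largest averaged median, 0.949, and for immediate early genes and immature neuron genes the control and insulin medians lie on opposite sides of 0.

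For some genes the diet effect differed with insulin. The interaction of diet and insulin called 145 genes (0.939%), of which 8, including 1 without a gene symbol, were also among the 252. Slc39a12, a zinc importer gene, measured 2.97 to 38.4 CPM (median 18.2) in IS control and 2.11 to 3.95 CPM (median 2.84) in ID control, and 1.74 to 41.3 CPM (median 15.3) in IS insulin and 19.4 to 43.2 CPM (median 34.8) in ID insulin. ID control was uniformly low and ID insulin uniformly high, while both IS groups were spread over both levels. Its log2 fold change was −2.80 in control pups (adjusted p = 0.00212) and 0.83 in insulin pups (adjusted p = 0.212), the interaction was 3.64 (adjusted p = 0.00433), and the average of −0.99 was not called (adjusted p = 0.0902).

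Cenpf, a mitotic kinetochore gene, was among the 8 genes called for both the average and the interaction. It averaged 3.63 ± 0.326 CPM in IS control, 3.5 ± 0.639 CPM in ID control, 2.88 ± 0.455 CPM in IS insulin and 4.93 ± 1.03 CPM in ID insulin (SD, n = 8, 9, 7 and 8). Insulin pups did not overlap between diets and control pups did. The averaged change of Cenpf was 0.36 on the log2 scale (SE 0.09, adjusted p = 0.0298), with −0.05 in control pups and 0.78 in insulin pups. It was the 1 member called of 23 immature neuron and proliferation genes, whose median was −0.027 in control pups and 0.243 in insulin pups.

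Genes lower in ID than in IS among insulin pups, with little difference among control pups, made up most of the remainder. On the log2 scale, Mal changed by 0.06 in control and −0.68 in insulin pups (interaction adjusted p = 0.0242). Scg3, a secretogranin of dense-core vesicles, changed by 0.03 and −0.30 (interaction adjusted p = 0.00938). Cpq, a carboxypeptidase gene, changed by −0.07 and −0.51 (interaction adjusted p = 0.0278). The small heat shock protein gene Cryab changed by −0.03 and −0.49, Slc3a2, the shared heavy chain of amino acid transporters, by −0.01 and −0.24, and Moxd1 by 0.01 and −0.78. Each of these 7 genes, Cenpf included, was called in insulin pups and not in control pups. Libraries of ID insulin and IS insulin did not overlap for Cpq, Cryab, Slc3a2 and Moxd1. Over all genes, libraries did not overlap between diets for 22 genes in control pups (0.142%) and 68 in insulin pups (0.44%). Immediate early genes had a median of 0.105 in control pups and −0.175 in insulin pups, with 0 of 26 called in the average.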

How the data were processed

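RNA sequencing counts per gene were deposited by the authors as 1 table of 32 libraries, with no column of other samples. Per the submitters' processing notes, reads were trimmed with Trimmomatic (version 0.40), inspected with FastQC, aligned with HISAT2 (version 2.1.0) and counted with featureCounts, and edgeR is named. The builds Rnor_6.0 and mm10 are listed without their roles. Strand use and the treatment of reads that fit several places are not given in the sources used here, so overlapping, antisense and near-identical genes (Mt2A with Mt1, globins, Olr1462) are uncertain.

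Of 32883 genes 9663 had no count. The tests used edgeR (version 4.0.16) under R (version 4.3.3), with TMM scaling, filterByExpr by group (15439 genes kept) and the quasi-likelihood F-test, two-sided (28 residual degrees of freedom). Benjamini-Hochberg adjustment ran over all tested genes, and an adjusted p under 0.05 was a call. The same fit gave the diet contrasts in control pups and in insulin pups and their interaction. Log2 fold changes carry edgeR's small prior count, and standard errors were taken as the fold change over the square root of F. The test was checked on simulated counts.

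Members and the 30 gene lists were chosen with earlier results of these data known. Named were the 15 largest increases and 15 largest decreases among called genes that had a symbol and averaged 1 or more in log2 CPM. Up to 2 called genes per list, fixed genes of interest, genes called in both diet comparisons and genes also called for the interaction were added. The table held 25 names turned into dates, which were tested and not named. Of 63 named genes 48 matched a RefSeq GRCr8 promoter by symbol. Alternatives were DESeq2 (version 1.42.0) and its size factors, limma voom (version 3.58.1), other filters, covariates, additive terms, title subsets and leaving out libraries.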

Additional observations from a re-analysis of the deposited data

Results flagged for a closer look

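In 216 tests, on log2 CPM, of a gene in a group for 1 library far from the rest, 13 values stood apart. This is near the share of about 1 in 20 that chance alone would mark. In IS insulin, replicate 4 had high Alox15 (210 CPM, the others 52.19 to 75.01) and Alas2 (41.07, the others 14.62 to 21.35) and low Tmem45b (0.1262, the others 0.3963 to 0.7856). Also in IS insulin, replicate 1 had high Tfrc (164.8 CPM, the others 116.9 to 126.5), replicate 7 low Adpgk (20.36, the others 33.18 to 47.52) and replicate 6 low Scg3 (306.4, the others 354.5 to 382.8).

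ID insulin replicate 3 had high Aadat (2.934 CPM, the others 0.8978 to 1.474), Mlc1 (458.7, the others 295 to 356.5) and Tekt1 (14.67, the others 4.642 to 7.885). In the same group replicate 5 had high Nexn (8.306, the others 1.687 to 3.367) and replicate 7 low Igf2 (136.6, the others 244.7 to 328.6). ID control replicate 2 had high Ca3 (24.61 CPM, the others 1.827 to 3.332) and Ghdc (7.898, the others 2.074 to 3.328).

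The diet effect differed between insulin and control pups, by the interaction term of edgeR, for 8 named genes. The interaction was 3.64 for Slc39a12 (adjusted p = 0.00433), −0.34 for Scg3 (0.00938), 0.84 for Cenpf (0.0242), −0.74 for Mal (0.0242), −0.79 for Moxd1 (0.0278), −0.44 for Cpq (0.0278), −0.23 for Slc3a2 (0.032) and −0.46 for Cryab (0.0399).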

How the results depend on the processing

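No named gene that was called reversed its direction. For the averaged effect (252 genes), DESeq2 called 419, limma voom 518, diet as the only term 165, tissue list covariates 55, the choroid plexus covariate 47 and title number 70 alone 164, while the other settings gave 180 to 275. In control pups (45 genes) the counts were 114 with DESeq2, 242 with voom, 15 with tissue covariates and 15 with the choroid plexus covariate. In insulin pups (378) they were 723 with DESeq2, 29 with tissue covariates, 108 with the choroid plexus covariate and 234 with title number 69 alone. For the interaction (145) they were 423 with DESeq2, 491 with voom, 94 with no count filter, 4 with tissue covariates, 12 with title number 69 alone and 433 without ID insulin replicates 3 and 5. The causes of these shifts were not tested. The choroid plexus covariate, the earlier quasi-likelihood method of edgeR and the removal of ID control replicate 2 with IS insulin replicate 4 were chosen after seeing the data.

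Leaving out 1 library at a time gave 177 (without ID control replicate 2) to 346 (without ID insulin replicate 7) for the averaged effect. In control pups the range was 23 to 61, with 23 to 28 without ID control replicate 7 or 9 or IS control replicate 1, 4 or 8. In insulin pups it was 169 to 751. Counts rose to 605 and 751 without ID insulin replicate 1 or 3, and fell to between 169 and 248 without IS insulin replicate 2, 3, 4 or 5 or ID insulin replicate 5, 6 or 8. For the interaction it was 40 to 594. Counts rose to 391, 232 and 594 without ID control replicate 1 or 2 or ID insulin replicate 3, and fell to between 40 and 94 without ID control replicate 5 or 7, IS control replicate 5, IS insulin replicate 2 or ID insulin replicate 5, 6 or 8.

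The second title number, whose meaning is not given, was tried as a replicate block. The 40 same-numbered pairs correlated at −0.195 to 0.25 (median 0.003), and 2 of 30 libraries correlated best with their own number. Such correlations over all genes cannot settle whether the number marks something that pups share. With this block 206 genes were called for the averaged effect (138 of the 252 shared), 33 in control pups, 177 in insulin pups and 9 for the interaction.

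Of 54 named genes called, 11 were called in all 16 settings and all 32 fits with 1 library left out: Alox15, C7, Retsat, Aadat, Vav2, Gpd1, Scara3, Tfrc, Cnot8, Tmem45b and Vps4b. Over all these fits the log2 fold change of Tfrc ran from 0.53 to 0.64, of Scara3 from −0.62 to −0.52 and of Alox15 from 0.77 to 1.52. The tissue covariates and the choroid plexus covariate each lost 37 of the 54, title number 70 alone 25 and the replicate block 19. Most of the 32 fits with 1 library left out lost the call of each of 9 named genes: Nexn, Cfap44, Dnah11, Lhb, Sncg, Igf2, Npnt, Mlc1 and Slc31a1. Of the 252 genes, 41 had a mean log2 CPM under 1.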

Other observations

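The called genes below were chosen after their values were seen. Psat1, an enzyme of serine synthesis, fell by 0.22 on the log2 scale (SE 0.05, adjusted p = 0.0185), and Gldc, the glycine decarboxylase, fell by 0.21 on the log2 scale (SE 0.05, adjusted p = 0.0338). Chdh, the choline dehydrogenase, fell by 0.39 on the log2 scale (SE 0.09, adjusted p = 0.012). Hsd11b1, which regenerates active glucocorticoids, averaged 60.2 ± 8.19 CPM in IS and 48.1 ± 6.88 CPM in ID (SD, n = 15 and 17) and fell by 0.33 on the log2 scale (SE 0.06, adjusted p = 0.00381). Srd5a1, a steroid 5-alpha reductase, fell by 0.20 on the log2 scale (SE 0.04, adjusted p = 0.0154).

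The laminin gene Lama4 rose by 0.29 on the log2 scale (SE 0.07, adjusted p = 0.0305) and Lama5 by 0.58 on the log2 scale (SE 0.12, adjusted p = 0.00841), and Nid1, the basement membrane linker nidogen, by 0.27 on the log2 scale (SE 0.06, adjusted p = 0.0103). Mertk, a receptor for engulfing dead cells, averaged 50 ± 11.1 CPM in IS and 38.3 ± 5.08 CPM in ID and fell by 0.39 on the log2 scale (SE 0.08, adjusted p = 0.0103). Gpnmb, a lysosomal glycoprotein gene of phagocytes, fell by 0.30 on the log2 scale (SE 0.06, adjusted p = 0.00382). Choroid plexus markers had a median log2 fold change of 0.949 with 1 of 18 called, and their part in these values was not tested.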
